A study of Homo sapiens with 18 samples.

Results

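The 89 genes examined here encode drug- and hormone-metabolising enzymes, namely 54 cytochrome P450s (CYP), 22 UDP-glucuronosyltransferases (UGT) and 13 cytosolic sulfotransferases (SULT). They were taken by symbol from the 23106 genes of the count files, of which 99 symbols carried a CYP, UGT or SULT family name. CYP51A1, which acts in cholesterol synthesis, and 9 pseudogenes were left out. PolyA+ RNA had been sequenced from 3 human cell lines, each in normoxia and in hypoxia with 3 replicates, giving 18 samples in 6 groups. HKC-8 is a renal proximal tubule line, HepG2 is a hepatocellular carcinoma line, and the RCC4 samples are a kidney cancer line labelled as carrying VHL (RCC4+VHL), the E3 ligase component that marks HIF-α for destruction. Hypoxic HKC-8 and HepG2 cells were held at 0.5% oxygen for 16 h according to their sample characteristics, although 0.1% stands in the HKC-8 hypoxia titles. Hypoxic RCC4+VHL cells are labelled as 1.0% oxygen for 24 h, so that their response cannot be compared with the others at a matched dose. All cells shared 1 culture medium with serum, and no label ties the replicates to separate days, so that p-values measure the spread between these samples.

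P450s are haem enzymes that insert an oxygen atom into lipids, steroids, vitamins and foreign compounds, using electrons supplied by POR or, in mitochondria, by ferredoxin. UGTs and SULTs then attach glucuronic acid or sulfate to such products, which makes them easier to excrete. Liver is the main site of this chemistry, kidney tubules hold a smaller set, and many of the genes respond to ligand-activated receptors such as AHR, PXR and the retinoic acid and vitamin D receptors.

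The total count per sample was between 40915980 and 97984260, highest in HKC-8 cells, and 3 counts in a sample correspond to 0.0306 to 0.0733 CPM, the count scaled to a common library size. Levels below are CPM scaled by the trimmed mean of M values (TMM), on 1 scale for all 18 samples, and intervals cover counting error only. All 12 hepatocyte markers examined were detected at a mean of at least 1 CPM in HepG2 cells, where their summed level was 36432 to 38810 CPM in normoxia and 44107 to 47414 CPM in hypoxia. They summed to at most 0.514 CPM in HKC-8 and 11.3 CPM in RCC4+VHL cells. Of 12 proximal tubule markers, 2 were detected in HKC-8, 4 in RCC4+VHL and 3 in HepG2 cells. In normoxia the 12 summed to 11.2 to 20.8, 316 to 329 and 451 to 484 CPM in these lines. The transporters SLC22A6 and SLC22A8 were at 0 in all of them. PAX2, PAX8 and the other 3 renal lineage markers were all detected in RCC4+VHL cells. In HKC-8 and HepG2 cells 2 of these 5 were detected. Fibroblast markers summed to at most 71.4 CPM, endothelial markers to 3.61 CPM and leukocyte markers to 2.76 CPM in any sample. The 10 genes used as a check of the hypoxic state rose in all 10 cases in HKC-8 and HepG2 cells, and in the 8 that could be tested in RCC4+VHL cells. A lower level in bulk RNA can mean fewer cells of a type or less RNA per cell, which cannot be told apart here.

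The enzyme repertoire of the 3 lines in normoxia was compared first. Of the 89 genes, 77 had a count in at least 1 sample, 12 were at 0 in all 18, and 25 never exceeded 3 counts. In HepG2 cells 35 genes had at least 10 counts in every sample, as did 17 in HKC-8 and 16 in RCC4+VHL cells. Summed over the 89 genes, normoxic HKC-8 samples held 85.8, 93.0 and 97 CPM. RCC4+VHL samples held 609, 582 and 598 CPM, and HepG2 samples 969, 960 and 921 CPM. The ranges of the 3 lines did not overlap. UGTs made up almost none of this in HKC-8 cells (0.417 CPM ± 0.145, SD, n = 3), against 287 CPM ± 5.18 in RCC4+VHL and 105 CPM ± 3.33 in HepG2 cells.

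Of 45 members tested between normoxic lines, 36 were higher and 6 lower in HepG2 than in HKC-8 cells, where 42.6% of all genes tested were higher and 40.5% lower. Against RCC4+VHL cells, 33 were higher and 8 lower in HepG2 cells, beside 45.3% and 38.1% of all genes. Between the kidney lines, 19 members were higher and 12 lower in RCC4+VHL than in HKC-8 cells, beside 39.4% and 41.4% of all genes. Many of the 45 entered the test through the line in which they were high. Of them 15 were at 0 in HepG2 or HKC-8 cells, 16 in HepG2 or RCC4+VHL cells and 24 in RCC4+VHL or HKC-8 cells. For genes at 0 in 1 line alone the direction was nearly fixed, and the counts are a description. With at least 10 counts in every normoxic sample, 6 members were left, of which 5 were higher and 1 lower in HepG2 than in HKC-8 cells. These comparisons share samples, and cell line cannot be told apart from sequencing depth or culture history.

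HepG2 cells expressed the classical liver set. Per kilobase of exon not shared with another gene, the 8 highest members in normoxia were CYP27A1, SULT2A1, SULT1A1, CYP24A1, UGT2B7, SULT1A2, CYP2W1 and CYP2S1. The mitochondrial sterol hydroxylase CYP27A1 led at 99.3 CPM per kb ± 4.32 (SD, n = 3). SULT2A1, which sulfates bile acids and adrenal androgens, followed at 72.6 CPM per kb ± 11.4, and the phenol sulfotransferase SULT1A1 at 62.8 CPM per kb ± 5.08, and the last 2 did not differ beyond their spread. CYP24A1, which inactivates vitamin D, stood at 54.4 CPM per kb ± 6.25. Lower in the order, UGT2B7 reached 29.6 CPM per kb ± 3.10, SULT1A2 21.2 ± 2.71, CYP2W1 17.5 ± 2.77 and CYP2S1 8.69 ± 0.875. The 2 SULT1A genes share much of their sequence: 61.8% of the 32-base stretches of SULT1A1 and 59.3% of those of SULT1A2 occur once in GRCh37. Since reads that mapped more than once were removed, both are undercounted and could stand higher in this order. SULT1A3 and SULT1A4, of which 1.0% and 1.1% is unique, were at 0 in every sample, which says nothing of their expression.

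The 8 highest members of RCC4+VHL cells were UGT1A6, UGT1A9, CYP1B1, CYP27A1, SULT1A1, UGT2B7, UGT8 and SULT1C2. The phenol-conjugating UGT1A6 was at 153 CPM per kb ± 2.92 and UGT1A9 at 95.5 CPM per kb ± 2.24, over the 976 and 892 bases that each does not share with the other UGT1A genes. The 9 UGT1A genes carry different first exons and common remaining ones, and reads in the common exons were not counted. CYP1B1, an AHR target that oxidises oestrogens and aromatic hydrocarbons, followed at 29.8 CPM per kb ± 2.12, next to CYP27A1 at 28.0 ± 1.01 and SULT1A1 at 27.8 ± 0.968, which did not differ beyond their spread. UGT2B7 stood at 15.4 CPM per kb ± 0.824, UGT8, which glycosylates ceramide, at 5.96 ± 0.339, and SULT1C2 at 3.52 ± 0.141.

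HKC-8 cells held few of these enzymes. Their 8 highest members were CYP24A1, CYP20A1, CYP4V2, CYP2R1, SULT1A1, CYP1B1, CYP26B1 and CYP27B1, of which 4 act on vitamin D or retinoic acid. CYP24A1 led at 9.04 CPM per kb ± 2.24. The orphan P450 CYP20A1 was at 2.36 CPM per kb ± 0.106, the fatty acid hydroxylase CYP4V2 at 2.33 ± 0.516, the vitamin D activating enzyme CYP2R1 at 2.04 ± 0.398 and SULT1A1 at 1.97 ± 0.0729, and no neighbours among these 4 differed beyond their spread. CYP1B1 was at 1.15 CPM per kb ± 0.766, the retinoic acid hydroxylase CYP26B1 at 0.889 ± 0.113, and CYP27B1, which makes the active vitamin D hormone, at 0.499 ± 0.0849. All 9 UGT1A genes and UGT2B7 were at 0 counts in HKC-8 cells, in normoxia and hypoxia.

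A group of members was detected in 1 normoxic line and at 3 counts or fewer in every sample of both others. Of 10 such genes in HepG2 cells, the 8 highest were SULT2A1, CYP2W1, CYP3A7, CYP4F3, CYP19A1, CYP4F12, SULT1E1 and UGT2B4. SULT2A1 was at 138 CPM ± 21.8 (SD, n = 3) and at 0 counts in both kidney lines, at least 3740-fold higher than in HKC-8 and at least 1970-fold higher than in RCC4+VHL cells against a floor of 3 counts per library. CYP2W1 was at 40.7 CPM ± 6.42, at least 1100-fold and at least 579-fold higher. CYP3A7, the fetal liver form of the main drug-oxidising P450, was at 14.4 CPM ± 2.19, the leukotriene hydroxylase CYP4F3 at 8.24 ± 0.864, the aromatase CYP19A1 at 7.85 ± 1.22, CYP4F12 at 6.88 ± 1.13, the oestrogen sulfotransferase SULT1E1 at 3.67 ± 1.04 and UGT2B4 at 1.81 ± 0.333. In RCC4+VHL cells the only such gene was UGT1A9, at 85.2 CPM ± 2.00, at least 2300-fold above HKC-8 and at least 1190-fold above HepG2 cells. HKC-8 cells had none.

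The response to hypoxia was then examined within each line. Of the 89 members, 49 had enough counts to be tested in at least 1 line, 9 in all 3, and 26 passed an adjusted p of 0.05 in at least 1. Members passed the filter on low counts through the line or condition in which they were high, so the counts below refer to tested genes alone. In HKC-8 cells 20 were tested, of which 3 rose (15%) and 1 fell (5.0%), beside 11.2% and 9.12% of all genes tested. In RCC4+VHL cells 4 of 21 rose (19%) and 6 fell (28.6%), beside 25.9% and 24.2%. In HepG2 cells 7 of 41 rose (17.1%) and 11 fell (26.8%), beside 19.9% and 19.2%. These shares lie near the background, and the median log2 fold change of the tested members was 0.269, -0.089 and -0.111 in the 3 lines, beside 0.00358, -0.00178 and -0.00441 for all genes. When counts were divided by library totals alone, the part of all called genes that was higher went from 51.7% to 33.0% in RCC4+VHL and from 50.8% to 32.6% in HepG2 cells, with no called member named here changing sign.

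**Figure D1:**
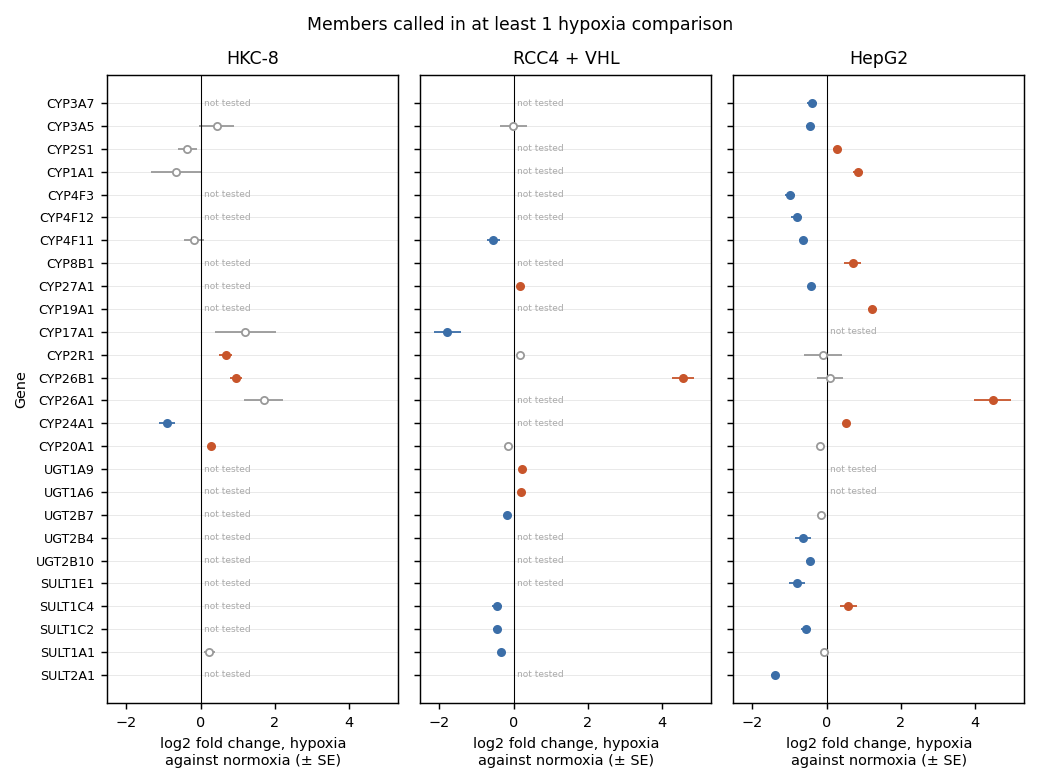
Log2 fold change between hypoxia and normoxia (horizontal axis, with SE) in each cell line for the 26 members called in at least 1 of them, with filled red points for members that rose, filled blue points for those that fell and open grey points for those not called. CYP26B1 in RCC4+VHL cells (4.57) and CYP26A1 in HepG2 cells (4.48) lie far to the right of all other points.

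The highest fold changes among called members belonged to the CYP26 enzymes, which hydroxylate and so inactivate all-trans retinoic acid. CYP26B1 gave it in the kidney lines and CYP26A1 in HepG2 cells. CYP26B1 (chr2:72356367-72374991, minus strand, GRCh37) was at 0.0790, 0.278 and 0.211 CPM in normoxic and 4.72, 3.32 and 5.53 CPM in hypoxic RCC4+VHL cells, with no overlap. Its log2 fold change was 4.57 ± 0.30 (SE, adjusted p = 9.96e-12). The pooled counts rose from 27 to 662, a ratio of 24.0 with an exact 95% interval of 16.3 to 36.7. In HKC-8 cells, where CYP26B1 was already expressed, levels were 3.80, 3.71 and 4.64 CPM in normoxia and 8.96, 7.60 and 6.93 CPM in hypoxia. The groups again did not overlap, and the log2 fold change was 0.95 ± 0.16 (adjusted p = 0.0045). Without a replicate block it was the only member called higher in more than 1 line. In HepG2 cells CYP26B1 stood at 0.612, 0.336 and 0.597 CPM against 0.595, 0.434 and 0.621 CPM, overlapping, with a log2 fold change of 0.09 ± 0.34 (adjusted p = 0.858) and a count ratio of 1.06 (0.748 to 1.51).

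CYP26A1 (chr10:94833232-94837642, plus strand) was nearly silent in normoxic HepG2 cells, at 0.0453, 0.0895 and 0 CPM, and reached 1.14, 1.09 and 1.03 CPM in hypoxia. All hypoxic samples lay above all normoxic ones. The fitted log2 fold change was 4.48 ± 0.50 (adjusted p = 1.33e-05). The pooled counts were 6 and 138, a ratio of 23.7 with an interval of 10.6 to 65.8. In HKC-8 cells the levels were 0.216, 0.0493 and 0.121 CPM in normoxia and 0.251, 0.430 and 0.581 CPM in hypoxia, without overlap but with a log2 fold change of 1.70 ± 0.53 that missed the threshold (adjusted p = 0.051). No label states that HKC-8 samples are paired, and the replicate numbers were taken as pairs from correlations in these same data. With the number as a block CYP26A1 was called there too (adjusted p = 0.0243). Its ratio of hypoxic to normoxic level within a number was 1.16, 8.72 and 4.8. CYP26A1 in RCC4+VHL cells had 2 counts in normoxia and 6 in hypoxia in all, too few for a test. The third gene of the family, CYP26C1, was tested in none of the lines.

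Since CYP26A1 is a textbook target of the retinoic acid receptor, the bases upstream of its start in GENCODE and of that of its paralogue CYP26B1 are shown, from GRCh37 and on the strand of each gene. Capitals mark matches to 2 patterns, searched on both strands of the 250 bases before the start. The first is a direct repeat spaced by 5 bases, made of any pair of 4 half-sites, which are AGGTCA as the consensus, then GGGTCA as a close variant of it, and on the same plan AGTTCA as well as the similar GGTTCA, which is the form of a retinoic acid response element. The second is the core of the HIF site, ACGTG or GCGTG.
CYP26A1, chr10:94833554-94833583: taaagaTGAACTTTGGGTGAACTaattgtc
CYP26A1, chr10:94833592-94833649: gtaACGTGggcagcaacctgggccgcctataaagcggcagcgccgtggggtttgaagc
CYP26B1, chr2:72374992-72375141: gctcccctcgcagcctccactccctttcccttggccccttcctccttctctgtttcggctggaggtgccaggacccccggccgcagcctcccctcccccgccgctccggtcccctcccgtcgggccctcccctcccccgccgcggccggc

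The repeat upstream of CYP26A1 lies 90 to 74 bases before the start and reads on the minus strand. The same bases fall in the first exon of another annotated CYP26A1 transcript. Of 18252 genes with a start in the annotation, 6 (0.0329%) hold this pattern within 250 bases, and CYP26A1 is the only member among them, while RARB, a retinoic acid receptor gene, is another. The HIF core was present upstream of 51.0% of all genes and 33.7% of the members, so that its occurrence before CYP26A1 is common. The core has fewer set bases than the repeat, so these shares cannot be weighed against each other. Whether either pattern acts in the hypoxic response was not tested. Neither pattern was found in the 250 bases before CYP26B1, which says only that these letters are not in that window.

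**Figure D2:**
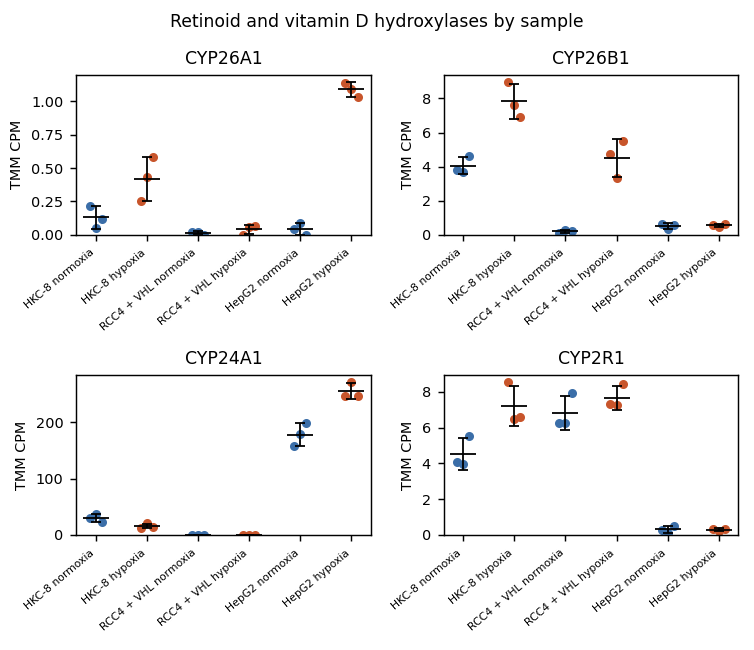
TMM-normalised CPM of CYP26A1, CYP26B1, CYP24A1 and CYP2R1 in each sample (points, blue for normoxia and orange for hypoxia) with the mean and SD of 3 replicates in black. CYP26A1 rises in HepG2 cells, CYP26B1 in both kidney lines, and CYP24A1 falls in HKC-8 but rises in HepG2 cells.

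Of the vitamin D enzymes, CYP24A1 (chr20:52769985-52790525, minus strand) changed in opposite directions. HKC-8 samples held 29.5, 37.1 and 22.4 CPM in normoxia and 12.9, 20.4 and 13.8 CPM in hypoxia, so that every hypoxic sample was below every normoxic one. The log2 fold change was -0.91 ± 0.21 (adjusted p = 0.0191, or 6.18e-05 with the replicate block), although the unblocked call was lost when normoxia replicate 1 or 2 or hypoxia replicate 1 or 3 was left out, with an adjusted p of up to 0.0832. HepG2 samples held 158, 179 and 199 CPM in normoxia and 247, 271 and 247 CPM in hypoxia, again without overlap, a log2 fold change of 0.52 ± 0.08 (adjusted p = 0.000219). The difference between the 2 responses, tested as an interaction in the 12 samples of these lines, whose hypoxic oxygen is the same in the sample characteristics but not in the titles, was 1.43 ± 0.24 on the log2 scale (SE, adjusted p = 0.00162). CYP24A1 in RCC4+VHL cells never exceeded 0.117 CPM.

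CYP2R1, which adds the first hydroxyl group in vitamin D activation, rose in HKC-8 cells. It was at 4.07, 3.96 and 5.53 CPM in normoxia and 8.53, 6.51 and 6.62 CPM in hypoxia, without overlap, a log2 fold change of 0.68 ± 0.18 (adjusted p = 0.0297). This call too was lost without any 1 of the same 4 samples (adjusted p up to 0.124). In RCC4+VHL cells the change was 0.18 ± 0.11 (adjusted p = 0.199), and HepG2 cells expressed little of it, at 0.112 to 0.525 CPM. CYP27B1 was not called in HKC-8 (0.37 ± 0.25, adjusted p = 0.328) or HepG2 cells (0.42 ± 0.23, adjusted p = 0.162). The remaining HKC-8 call was CYP20A1, at 24.0, 24.6 and 26.2 CPM in normoxia and 31.6, 30.9 and 28.9 CPM in hypoxia, a log2 fold change of 0.29 ± 0.09 (adjusted p = 0.0439). It held in 1 of the 6 fits that each left out 1 sample, the one without normoxia replicate 3.

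Under the replicate block, 6 members rose and 2 fell in HKC-8 cells, against 3 and 1 without it. Under the block 21% of all genes tested rose and 21.6% fell, also more than without it. Besides CYP26A1, these were CYP4V2 (log2 fold change 0.50 ± 0.17, adjusted p = 0.0697, or 0.00137 with the block), CYP2U1 (0.60 ± 0.26, adjusted p = 0.129, or 0.0178 with the block), and CYP1B1, a fall of 0.61 ± 0.52 (adjusted p = 0.443, or 0.00483 with the block). CYP1B1 was at 2.95, 4.52 and 10.5 CPM in normoxia and 2.33, 2.51 and 6.98 CPM in hypoxia. Both samples numbered 3 stood above the other 4, and the level fell within each number, to 0.791, 0.554 and 0.663 of the normoxic value. CYP1A1, another AHR target, was also highest in the samples numbered 3, at 0.288, 0.296 and 1.83 CPM in normoxia and 0.389, 0.430 and 0.702 CPM in hypoxia. Its ratio within a number was 1.35, 1.45 and 0.385, and its change of -0.67 ± 0.68 was not called (adjusted p = 0.517, or 0.607 with the block). Without both samples numbered 3, a setting chosen after the data were seen, the log2 fold change of CYP1A1 was 0.49 ± 0.39 (adjusted p = 0.413). In that fit 4 members rose, CYP26B1, CYP2R1, CYP20A1 and CYP4V2 (adjusted p = 0.0314 for the last), and 1 fell, CYP24A1, beside 11.2% and 8.55% of all genes.

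In hypoxic HepG2 cells 3 of 6 sulfotransferase genes tested fell and 1 rose, beside 19.2% and 19.9% of all genes tested. SULT2A1 (chr19:48373724-48389572, minus strand) was at 162, 134 and 119 CPM in normoxia and 58.7, 52.6 and 47.0 CPM in hypoxia. The groups lay far apart, and the log2 fold change was -1.39 ± 0.10 (adjusted p = 2.98e-07). SULT1E1, at 4.60, 3.85 and 2.55 CPM against 2.52, 2.02 and 1.76 CPM, changed by -0.80 ± 0.22 (adjusted p = 0.011), a call lost without normoxia replicate 1 or hypoxia replicate 3. SULT1C2, a sulfotransferase of small phenols, was at 4.69, 5.28 and 4.97 CPM against 3.14, 3.67 and 3.31 CPM, a change of -0.56 ± 0.14 (adjusted p = 0.00538). Both pairs of groups were separate. Summed over the 13 sulfotransferase genes, the level was 302, 270 and 237 CPM in normoxia and 188, 174 and 158 CPM in hypoxia, and SULT2A1 gave 51.2% of the normoxic sum. SULT1A1 was not called (-0.08 ± 0.07, adjusted p = 0.398), nor was SULT1A2 (-0.27 ± 0.11, adjusted p = 0.0618).

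The CYP4F genes, which oxidise long-chain fatty acids, leukotrienes and vitamin K and form a cluster on chromosome 19, gave 3 further falls, while the other 4 fatty acid P450s tested were not called. Among all genes tested in HepG2 cells, 19.2% fell. CYP4F3 was at 8.61, 8.86 and 7.26 CPM in normoxia and 4.64, 4.26 and 3.57 CPM in hypoxia, a log2 fold change of -0.99 ± 0.14 (adjusted p = 8.4e-05). CYP4F12, at 6.37, 8.17 and 6.09 CPM against 3.67, 4.47 and 3.62 CPM, changed by -0.81 ± 0.15 (adjusted p = 0.000929). CYP4F11, at 15.9, 17.0 and 16.6 CPM against 10.7, 10.4 and 10.6 CPM, changed by -0.65 ± 0.09 (adjusted p = 6.16e-05). None of the 3 overlapped between conditions. CYP4F11 also fell in RCC4+VHL cells, from 3.71, 3.75 and 3.02 CPM to 2.97, 2.40 and 1.76 CPM (-0.55 ± 0.18, adjusted p = 0.013). SULT1C2 and CYP4F11 were the only members called lower in 2 lines. That call was lost without normoxia replicate 1 or 2 or hypoxia replicate 3, with an adjusted p of up to 0.0869. CYP4F2 was not called (-0.32 ± 0.20, adjusted p = 0.239).

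Of 6 UGT2 genes tested in HepG2 cells, 2 fell, beside 19.2% of all genes tested. UGT2B4, which conjugates bile acids, was at 1.65, 1.59 and 2.20 CPM in normoxia and 1.17, 0.999 and 1.32 CPM in hypoxia, without overlap, a change of -0.64 ± 0.22 (adjusted p = 0.036). Its call was lost without normoxia replicate 3 or hypoxia replicate 1 or 2. UGT2B10 changed by -0.46 ± 0.10 (adjusted p = 0.00382). In 1 fit of all 18 samples neither was called (adjusted p = 0.122 for UGT2B4 and 0.112 for UGT2B10). Only 58.3% of the 32-base stretches of UGT2B10 are unique, so its count is uncertain. The most abundant of the family, UGT2B7, was at 49.6, 56.8 and 61.2 CPM in normoxia and 46.1, 49.7 and 56.8 CPM in hypoxia, overlapping (-0.14 ± 0.09, adjusted p = 0.253). Of the CYP3A genes, CYP3A5 fell by 0.45 ± 0.10 (adjusted p = 0.00339) and CYP3A7 fell by 0.39 ± 0.14 (adjusted p = 0.0473), the latter with overlapping groups and a call that held only without normoxia replicate 3 or hypoxia replicate 1. CYP3A4, the main drug-oxidising P450 of adult liver, was at 0.431, 0.739 and 0.692 CPM and 0.286, 0.456 and 0.233 CPM, a log2 fold change of -0.91 ± 0.37 that was not called (adjusted p = 0.0699).

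**Figure D3:**
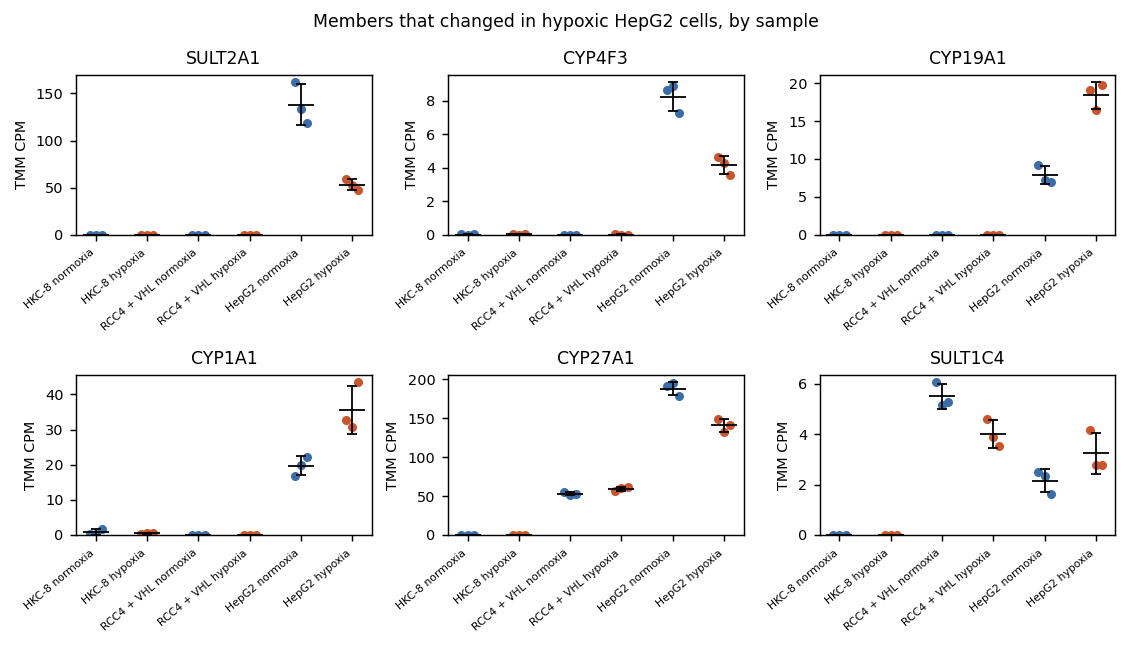
TMM-normalised CPM of 6 members in each sample (points, blue for normoxia and orange for hypoxia) with the mean and SD of 3 replicates in black. In HepG2 cells SULT2A1, CYP4F3 and CYP27A1 fall and CYP19A1, CYP1A1 and SULT1C4 rise, and in RCC4+VHL cells CYP27A1 rises slightly and SULT1C4 falls.

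Members that rose in HepG2 cells, beside CYP26A1 and CYP24A1, were led by CYP19A1 (chr15:51500254-51630798, minus strand), which makes oestrogens from androgens. It was at 9.25, 7.27 and 7.02 CPM in normoxia and 19.1, 16.4 and 19.7 CPM in hypoxia, with no overlap, a log2 fold change of 1.23 ± 0.12 (adjusted p = 3.22e-06). CYP1A1 (chr15:75011883-75017877, minus strand), the AHR-induced oxidase of aromatic hydrocarbons, was at 16.9, 19.9 and 22.2 CPM in normoxia and 32.7, 30.6 and 43.4 CPM in hypoxia. The groups were separate, and the change was 0.85 ± 0.13 (adjusted p = 0.000167), but in 1 fit of all 18 samples, which shares 1 estimate of the spread with HKC-8 cells, the adjusted p was 0.0768. CYP8B1, which directs bile acid synthesis towards cholic acid, was at 0.884, 0.985 and 0.907 CPM against 1.74, 1.5 and 1.27 CPM (0.70 ± 0.23, adjusted p = 0.0275), and its call held only without normoxia replicate 2 or hypoxia replicate 3. CYP2S1 rose by 0.27 ± 0.09 (adjusted p = 0.0297) with overlapping groups, and its call held only without normoxia replicate 3 or hypoxia replicate 2.

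In RCC4+VHL cells the steroidogenic CYP17A1 fell from 0.849, 1.39 and 0.959 CPM to 0.186, 0.30 and 0.435 CPM, without overlap (-1.79 ± 0.37, adjusted p = 0.00032). SULT1A1 was at 43.7, 42.0 and 45.0 CPM in normoxia and 35.1, 33.7 and 33.3 CPM in hypoxia (-0.35 ± 0.05, adjusted p = 4.14e-06), and SULT1C2 at 9.11, 8.52 and 9.17 CPM against 6.39, 6.41 and 6.58 CPM (-0.46 ± 0.10, adjusted p = 0.000339). All 3 SULT1 genes tested fell, beside 24.2% of all genes tested. The dominant UGTs moved little: UGT1A6 was at 150, 146 and 151 CPM against 165, 171 and 174 CPM (0.19 ± 0.04, adjusted p = 9.67e-05), and UGT1A9 at 83.4, 84.7 and 87.3 CPM against 98.1, 96.9 and 105 CPM (0.24 ± 0.04, adjusted p = 4.87e-05). Their groups did not overlap, but UGT1A6 was not called in 1 fit of all 18 samples (adjusted p = 0.106). UGT2B7 changed by -0.17 ± 0.06 (adjusted p = 0.0214), a call lost without normoxia replicate 2 or 3 or hypoxia replicate 3 and in the fit of all 18 samples (adjusted p = 0.226). The most abundant P450 of these cells, CYP1B1, was at 168, 151 and 147 CPM against 141, 146 and 148 CPM, overlapping, and was not called (-0.09 ± 0.04, adjusted p = 0.0742).

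CYP27A1 and SULT1C4 were called in opposite directions, in HepG2 and RCC4+VHL cells, a difference that was not tested because the labelled oxygen and duration differ. CYP27A1 fell in HepG2 cells from 191, 195 and 179 CPM to 149, 133 and 141 CPM (-0.42 ± 0.06, adjusted p = 0.000208). In RCC4+VHL cells it went from 54.8, 51.0 and 53.1 CPM to 56.7, 59.9 and 61.5 CPM (0.17 ± 0.05, adjusted p = 0.00421), but the adjusted p was 0.107 in 1 fit of all 18 samples, and the call was also lost with library totals alone. SULT1C4 rose in HepG2 cells, from 2.49, 2.33 and 1.62 CPM to 4.19, 2.78 and 2.77 CPM (0.59 ± 0.22, adjusted p = 0.0443), a call lost without normoxia replicate 2 or 3 or hypoxia replicate 1 and with library totals alone. It fell in RCC4+VHL cells, from 6.06, 5.16 and 5.29 CPM to 4.62, 3.88 and 3.52 CPM (-0.45 ± 0.13, adjusted p = 0.00584). Neither SULT1C4 call held in 1 fit of all 18 samples (adjusted p = 0.0531 in HepG2 and 0.126 in RCC4+VHL cells).

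The difference between the HepG2 and HKC-8 responses was tested for 46 members, of which 1 was higher and 2 lower in HepG2 cells, beside 5.02% and 4.28% of all genes. Dividing by library totals alone took the higher part of all called genes here from 54.0% to 32.8%. Of the 46 members, 16 were tested in both lines alone, and the rest were near 0 in 1 of them. CYP20A1, which rose in HKC-8 cells, was not called in HepG2 cells (-0.19 ± 0.08), and the difference was -0.48 ± 0.12 (adjusted p = 0.0184). CYP4F12 differed by -3.60 ± 0.98 (adjusted p = 0.0323), but it had 1 count in normoxic and 10 in hypoxic HKC-8 samples in all, and its call was lost without any 1 of 7 samples, 4 of them HKC-8, and without both samples numbered 3. Blocking by replicate number within each line gave 3 higher and 5 lower members, adding CYP1A1 and CYP26A1 on the higher side and CYP2U1, CYP4F3 and CYP4V2 on the lower side. Like CYP4F12, CYP4F3 was near the floor in HKC-8 samples, with 1, 0 and 1 counts in normoxia and 4, 0 and 5 in hypoxia. In the blocked fit 11.0% of all genes were higher and 9.06% lower. Without both HKC-8 samples numbered 3 there were 2 higher and 2 lower members, beside 5.74% and 6.59% of all genes.

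Genes that serve these enzymes were followed from fixed lists. For scale, 19.9% of all genes tested rose and 19.2% fell in HepG2 cells. The shares were 25.9% and 24.2% in RCC4+VHL and 11.2% and 9.12% in HKC-8 cells. Of 10 genes for the sulfate and glucuronic acid donors and their transport, 5 rose and 2 fell in HepG2, 3 rose and 2 fell in RCC4+VHL and 1 rose and 3 fell in HKC-8 cells. PAPSS2, which makes the sulfate donor PAPS, rose in HepG2 cells by 1.60 ± 0.251 (adjusted p = 0.000255), and the phosphatase IMPAD1, which clears the spent donor, by 1.17 ± 0.0743 (adjusted p = 5.49e-08). Of 12 electron donors, 3 rose and 5 fell in HepG2 cells, 2 rose and 7 of 11 fell in RCC4+VHL cells, and 2 rose and 2 of 11 fell in HKC-8 cells. The P450 reductase POR went by -0.43 ± 0.0432 in RCC4+VHL cells (adjusted p = 1.66e-08), by 0.19 ± 0.0594 in HepG2 cells (adjusted p = 0.022) and by -0.29 ± 0.122 in HKC-8 cells (adjusted p = 0.121). Its HepG2 call held in 3 of the 6 fits that each left out 1 sample (adjusted p up to 0.11). That call was also lost with library totals alone and in 1 fit of all 18 samples. CYB5R3 rose in HepG2 cells by 1.08 ± 0.0605 (adjusted p = 1.33e-08). Of 12 haem genes, 1 rose and 6 fell in HepG2, 2 rose and 4 fell in RCC4+VHL, and 2 rose and 3 fell in HKC-8 cells.

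Of 30 regulators, 4 rose and 8 of 29 tested fell in HepG2 cells, 6 rose and 7 of 22 fell in RCC4+VHL cells, and 3 of 20 were called in HKC-8 cells, all higher. Among all genes tested, 19.9% rose and 19.2% fell in HepG2 cells, 25.9% and 24.2% in RCC4+VHL, and 11.2% and 9.12% in HKC-8 cells. AHR fell in HepG2 cells by 0.48 ± 0.104 (adjusted p = 0.00256) and rose in RCC4+VHL cells by 0.75 ± 0.0611 (adjusted p = 5.97e-10), and was not called in HKC-8 cells (0.17 ± 0.106, adjusted p = 0.295). Its partner ARNT was called in none of the lines (adjusted p = 0.142, 0.905 and 0.832 in HKC-8, RCC4+VHL and HepG2 cells). NR1I2, which encodes PXR, NR1I3 and HNF4A were tested in HepG2 cells alone and were not called (log2 fold changes of -0.23 ± 0.0884, -0.15 ± 0.545 and 0.09 ± 0.0553). NR5A2 rose in RCC4+VHL cells by 1.84 ± 0.333 (adjusted p = 7.1e-05) and CEBPA in HKC-8 cells by 1.03 ± 0.291 (adjusted p = 0.0377). Of 14 other oxidative and hydrolytic enzymes, 3 rose and 3 of 12 tested fell in HepG2 cells, 2 rose and 4 of 9 fell in RCC4+VHL cells, and 3 rose and 1 of 10 fell in HKC-8 cells. The flavin monooxygenase FMO5 rose in HKC-8 cells by 2.02 ± 0.432 (adjusted p = 0.0129) and in HepG2 cells by 1.02 ± 0.133 (adjusted p = 5.56e-05), and FMO4 in HKC-8 cells by 1.56 ± 0.47 (adjusted p = 0.0448). The HKC-8 call of CEBPA held in 2 of the 6 fits that each left out 1 sample (adjusted p up to 0.142) and that of FMO4 in 1 of 6 (up to 0.167), and both were lost without both samples numbered 3. The call of FMO5 was lost without normoxia replicate 1 or 2.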

How the data were processed

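The authors trimmed reads with Trim Galore 0.3.3, aligned them to GRCh37 with TopHat 2.0.8b and Bowtie 1.0.0, removed reads that mapped to more than 1 place with SAMtools 0.1.19, and deposited raw counts per gene made with HTSeq 0.5.4p3 in its strict intersection mode. They tested those counts with DESeq2. Their strand setting is not given in the sources used here, so that a gene and its antisense partner cannot be told apart. The label of 1.0% oxygen for RCC4+VHL cells also differs from the study's methods, and the labels were used.

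Here the deposited counts were tested with edgeR 4.0.16 in R 4.3.3 (quasi-likelihood F test, TMM factors, filterByExpr, Benjamini-Hochberg adjustment over all genes tested, threshold 0.05), 1 fit per line for hypoxia, the 12 HKC-8 and HepG2 samples for the interaction, and the normoxic samples for the lines. The SE of a log2 fold change was its absolute value divided by the square root of the F statistic, and is approximate for genes at low counts. The fits were tested on simulated data with 200 changed genes at a log2 size of 1.5. Of the calls made there, 4.98% fell on unchanged genes for HKC-8 (13429 genes), 7.44% for RCC4+VHL (12742), 6.54% for HepG2 (13514), 9.71% for the interaction (14640) and 10.8% for normoxic HepG2 over HKC-8 (14392). All but the first lay above the nominal rate, but with 1 simulated data set per fit a small excess cannot be told from sampling error. The changed genes were drawn above a minimum expected count that many members do not reach. Every other simulated gene had the same mean in all groups, so the simulated lines did not differ and their samples were not paired. The rates for the interaction and the normoxic lines therefore do not cover members expressed in 1 line alone. Levels per length use exonic bases that no other gene shares, in 1 GENCODE transcript per gene, for genes with at least 200 of them. They were not corrected for sequence that occurs more than once in GRCh37, which can change the order. The members and lists were chosen with earlier results of these data known. Members named with values were those called with the highest absolute log2 fold change (up to 12 per comparison), those called in opposite directions or in the interaction, the 8 highest per length in each line, and those detected in 1 line alone. Of the other lists, called genes that moved by 1 or more on the log2 scale (up to 6 per comparison) and 6 fixed genes were named. A gene that met this rule and a promoter sequence are not reported here. CYP3A4, CYP3A5, CYP3A7, CYP2S1, CYP4F2, CYP27B1, UGT2B7 and UGT2B10 in HepG2 cells, CYP1B1 in RCC4+VHL cells, and SULT1A1 and SULT1A2 were also given after their values were seen. Protein identity was not used, and the share of unique 32-base exonic stretches stood in for it. Same-numbered samples had deviations from their group means that correlated at 0.109, 0.453 and 0.447 in HKC-8 cells, above 0.1 in each pair, although normoxia replicate 1 correlated at 0.116 with hypoxia replicate 2, and at most 0.0333 in RCC4+VHL cells. In HepG2 cells 1 of 3 pairs was below 0.1 (0.165, 0.0617 and 0.184), so that only HKC-8 samples were taken as paired. Alternatives were DESeq2 1.42.0, median-of-ratios size factors, library totals, other filters on low counts, a replicate block, 1 fit of all 18 samples, leaving out each sample, and, chosen after seeing the data, leaving out both HKC-8 samples numbered 3.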

Additional observations from a re-analysis of the deposited data

Results flagged for a closer look

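For 3 members the response to hypoxia differed between HepG2 and HKC-8 cells by a test of the interaction of line and oxygen (edgeR's quasi-likelihood test with Benjamini-Hochberg adjustment). CYP24A1 differed by 1.43 on the log2 scale, with every HKC-8 hypoxic sample below and every HepG2 hypoxic sample above the normoxic samples of its line. CYP20A1 differed by -0.48, a call lost without HKC-8 normoxia replicate 1, HepG2 normoxia replicate 1 or HepG2 hypoxia replicate 1 or 3 (adjusted p up to 0.0585). CYP4F12 differed by -3.60, on 0, 0 and 1 counts in normoxic and 4, 1 and 5 counts in hypoxic HKC-8 samples, a ratio of 9.82 with an exact 95% interval of 1.4 to 426.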

How the results depend on the processing

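No called member changed direction under any alternative run. Many of those not called did. Among them, CYP1A1 in HKC-8 cells went from -0.67 to 0.49 without both samples numbered 3, and CYP1B1 from -0.61 to 0.08 without normoxia replicate 3. CYP2R1 in HepG2 cells went from -0.1 to 0.48 without normoxia replicate 3. In the interaction, CYP4F2 went from -1.86 to 1.95 without HKC-8 hypoxia replicate 2. Median-of-ratios size factors left all 52 named calls and all 14 counts on the same side. With DESeq2, the members higher in HKC-8 cells were 5 instead of 3, and those with a higher response in HepG2 than in HKC-8 cells 3 instead of 1. In 1 fit of all 18 samples, the higher members were 7 in HKC-8, 2 in RCC4+VHL and 3 in HepG2 cells instead of 3, 4 and 7, and 12 of 49 named calls were lost. With the replicate block, 6 members were higher and 2 lower in HKC-8 cells, and 3 had a higher and 5 a lower response in HepG2 cells. The block changed no other count by over 1.5 times and ended no call. Without both HKC-8 samples numbered 3, 2 members had a higher response in HepG2 cells. A minimum of 10 counts in every sample left 1 member with a lower response in HepG2 cells. It left 6 members to compare between normoxic lines. Of these 5 were higher and 1 lower in HepG2 than in HKC-8 cells, 4 higher and 0 lower in HepG2 than in RCC4+VHL cells, and 3 higher and 3 lower in RCC4+VHL than in HKC-8 cells, since fewer genes were tested.

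With each sample left out in turn, the higher and lower members ranged from 1 to 4 and 0 to 1 in HKC-8, from 4 to 7 and 4 to 6 in RCC4+VHL, and from 4 to 6 and 9 to 12 in HepG2 cells. Members with a higher and lower response in HepG2 cells ranged from 1 to 3 and 0 to 4. Between normoxic lines they ranged from 36 to 37 and 6 to 6 for HepG2 over HKC-8, from 32 to 33 and 8 to 8 for HepG2 over RCC4+VHL, and from 16 to 21 and 11 to 13 for RCC4+VHL over HKC-8.

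Library totals alone lost the calls of CYP20A1 and FMO4 in HKC-8, CYP27A1 in RCC4+VHL, and CYP2S1, POR and SULT1C4 in HepG2 cells. They moved the median of all genes to -0.0845 in RCC4+VHL, -0.0974 in HepG2 cells and -0.101 in the interaction. With 3 samples a group, and 25 members never above 3 counts, a change in most of the members at low counts was not detectable at this depth.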
